A study of Homo sapiens with 3 samples.

Results

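The day 5 library of a human fibroblast-to-neuron induction series held 901 barcodes that carried RNA of the genes that make, pack or take up GABA and glycine and no RNA of the vesicular glutamate transporter SLC17A6. They were chosen by their UMIs of these 5 genes among the 9219 kept day 5 barcodes. These had 2155 UMIs or more, 300 genes or more and no more than 20% of UMIs from mitochondrial genes. All 3 libraries held 37446 kept barcodes, with a limit of 500 UMIs in place of 2155 at days 0 and 3. A barcode became a member with at least 2 UMIs summed over GAD1, GAD2, SLC6A5 and SLC32A1 and 0 UMIs of SLC17A6, so members made up 9.77% of the kept day 5 barcodes and the other 8318 were the comparison group. The 5 gate genes chose the members and are left out of every comparison below.

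The series has 1 library for each of 3 groups, all labelled wild type and all labelled with reprogramming as treatment. Day 0 holds BJ cells, an established human foreskin fibroblast line, and days 3 and 5 hold cells named FiN and labelled as induced neurons, kept per the protocol in a medium with 10 µM forskolin, a compound that switches on adenylyl cyclase and so increases cAMP, with the medium changed on day 2 and forskolin taken away on day 5. For days 0 and 3 the protocols describe nuclei and an ATAC kit (open chromatin), and for day 5 whole dissociated cells, a 3' expression kit and an ATAC manual. With 1 library per group there is no replicate and no test, and every interval below covers counting error of UMIs or barcodes only.

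Inhibitory neurons release GABA or glycine. GAD1 and GAD2 are the enzymes that make GABA from glutamate, SLC6A5 (GlyT2) takes glycine back into the terminal of glycine neurons, and SLC32A1 (VGAT) loads both transmitters into vesicles. In the brainstem and spinal cord many inhibitory neurons use both transmitters, and their precursors are known for the factors PAX2, PAX8, LHX1 and LHX5, whereas cortical inhibitory neurons arise under the DLX factors and hardly use glycine.

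The gate was carried mostly by the glycine transporter. SLC6A5 had a UMI in 794 members (88.1%) and gave 74.1% of all gate UMIs, GAD2 had a UMI in 518 members (57.5%), GAD1 in 179 (19.9%) and SLC32A1 in 74 (8.21%). Both a GAD gene and SLC6A5 were detected in 482 members, SLC6A5 without GAD in 312, a GAD gene without SLC6A5 in 106 and neither in 1. A member held a median of 4 gate UMIs and at most 25, with 226 members at exactly 2 UMIs and 154 at 3, so 689 barcodes with 1 gate UMI and no SLC17A6 lay just outside. The same gate passed 3 of 16773 kept barcodes at day 0 and 0 of 11454 at day 3, both kept at 500 UMIs or more. At day 3 the 0 allows a share of up to 0.0262% by the limit of 3 counts and 0.0322% by the exact binomial interval. Day 3 barcodes were shallow, with a median of 1324 UMIs, under the 2155 needed at day 5.

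Members held 2156 to 43029 UMIs (median 5179) and 6617610 in all, against a median of 4304 and 45090912 in all for the other kept day 5 barcodes. The mitochondrial share had a median of 3.94% in members and 4.66% in the others, and genes with over 100 kb of intron took 50.05% of UMIs in members and 45.9% in the others. MALAT1, a nuclear long RNA, took 7.10% and 7.26%. Of the barcodes of the 901 members, 5 also occur among kept day 0 barcodes and 3 among those of day 3. Of all 9219 kept day 5 barcodes, 47 and 27 do. Possible doublets were not called or removed, and the part of depth, nuclear RNA and doublets in the results below was not tested.

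The neuronal label was checked on genes outside the gate. At least 2 UMIs summed over STMN2, DCX, ELAVL3, ELAVL4, MYT1L, GAP43 and SNAP25 were found in 876 members (97.2%), in 52.1% of the others and in 97.1% of the barcodes with at least 2 UMIs of SLC17A6 and 0 of the inhibitory genes. ADARB2, an RNA-binding member of the ADAR family that labels one class of cortical inhibitory neurons, had a UMI in 92.8% of members and 34.3% of the others, and in 84.0% and 23.4% with every barcode thinned to 2155 UMIs. ADARB2 was among the markers that members were labelled with, and earlier results of these data were known then. Its shares are therefore no separate check of the label. In 1706 kept barcodes with at least 2 UMIs of the progenitor factor RFX4 and none of the neuronal or inhibitory gate genes, which serve here as cells that should lack neuronal RNA, ADARB2 was found in 21.2%, or 12.4% after thinning, at a median depth of 4004 UMIs. COL1A2, a fibrillar collagen of fibroblasts, stood at 917 CPM (UMIs of the gene per 1000000 UMIs) in the day 0 library and at 78.6 CPM (72.0 to 85.6) in members, levels from separately processed tables.

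Against all other kept day 5 barcodes, genes of synaptic contact, a calcium channel subunit and factors of hindbrain and spinal inhibitory neurons were among the genes at higher level in members. NRXN3, a presynaptic adhesion protein, was at 5851 CPM (95% Poisson interval 5793 to 5909) in members and 734 (726 to 742) in the others, 7.97-fold (7.85 to 8.09). CACNA2D3, an auxiliary calcium channel subunit, was 9.52-fold (9.15 to 9.91) higher at 889 against 93.4 CPM, and PAX8, a paired-box factor, 11.4-fold (9.92 to 13.1) higher at 81.8 against 7.16 CPM. A call, higher or lower, needed a CPM ratio of 2 or more, 10 CPM or more in the larger group and Poisson intervals that did not touch, and a group under 3 UMIs was set at 3. By that rule 434 of 11142 genes tested (3.9%) were higher in members and 423 (3.8%) lower, with a median log2 ratio of -0.12 over all. With median-of-ratios size factors 532 were higher and 301 lower, and with TMM factors 481 and 348.

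**Figure D1:**
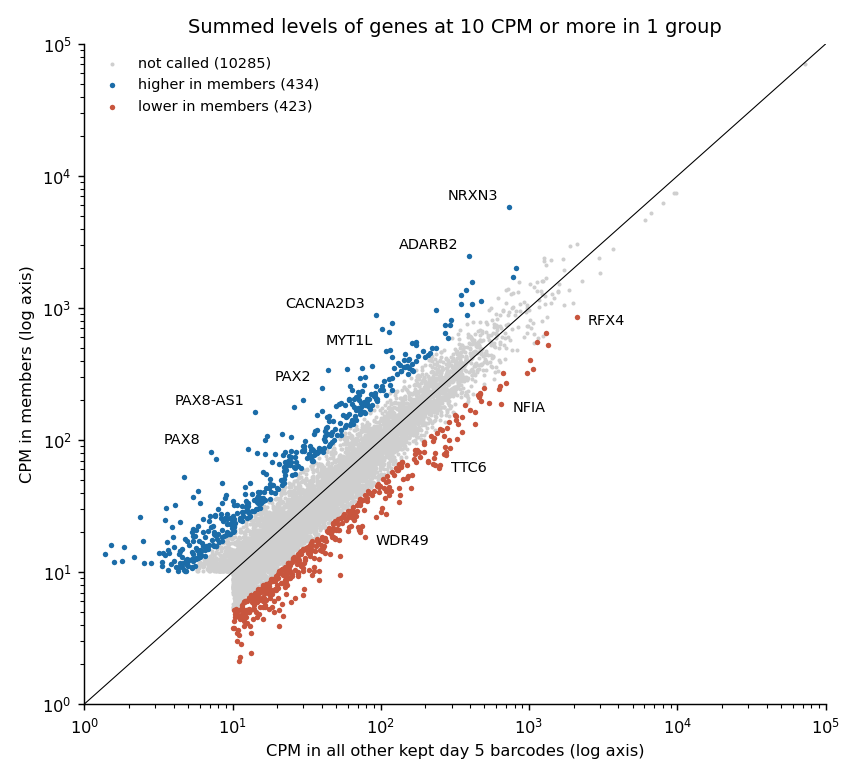
Each point is 1 gene with at least 10 CPM in 1 group, with its level in all other kept day 5 barcodes on the x axis and in the 901 members on the y axis, both in CPM on log axes; blue genes were called higher and red genes lower. NRXN3, ADARB2 and CACNA2D3 stand far above the line of equal levels, and PAX8 and PAX8-AS1 are the named genes with the highest ratios, while RFX4, NFIA, TTC6 and WDR49 lie below it.

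PAX8 and its antisense RNA led by ratio. PAX8-AS1, an antisense RNA that overlaps PAX8, was at 163 CPM in members and 14.3 in the others, 11.5-fold (10.4 to 12.6) higher. PAX8 lies at chr2:113215997-113278950 on the minus strand and PAX8-AS1 at chr2:113211522-113276581 on the plus strand (GRCh38, GENCODE 29), and since the sources used here do not give whether strand was counted, reads of the overlap could belong to either. PAX2, at chr10:100735603-100829941, was at 249 CPM (237 to 261) in members and 40.0 in the others, 6.21-fold (5.81 to 6.65). It was detected in 579 members (64.3%), 11.1% of the others and 2.52% of the RFX4 progenitor barcodes, and with every barcode thinned to 2155 UMIs the shares were 41.0% (37.7 to 44.2), 6.68% and 1.23%. PAX8 after thinning was found in 18.0% of members (15.5 to 20.6), 1.38% of the others and 0.469% of the progenitor barcodes.

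The promoters of both factors and of CACNA2D3 and NRXN3, the named genes with the next highest ratios, are shown, since these 4 genes were called higher in members against the other barcodes and against the SLC17A6 barcodes described later. They are the 250 bases before the gene start in RefSeq (GRCh38.p14), 5' to 3' on the strand of the gene, in lower case, with capitals for E-boxes (CANNTG), the motif of basic helix-loop-helix factors, and for the homeodomain core TAATTA, each searched on both strands, where each reads the same.
PAX2 (chr10:100735146-100735395, plus strand): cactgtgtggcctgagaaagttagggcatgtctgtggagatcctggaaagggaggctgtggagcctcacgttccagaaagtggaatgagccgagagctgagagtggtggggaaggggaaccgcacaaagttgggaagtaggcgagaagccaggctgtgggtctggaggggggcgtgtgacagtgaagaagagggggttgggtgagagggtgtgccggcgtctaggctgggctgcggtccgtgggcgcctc
PAX8 (chr2:113278922-113279171, minus strand): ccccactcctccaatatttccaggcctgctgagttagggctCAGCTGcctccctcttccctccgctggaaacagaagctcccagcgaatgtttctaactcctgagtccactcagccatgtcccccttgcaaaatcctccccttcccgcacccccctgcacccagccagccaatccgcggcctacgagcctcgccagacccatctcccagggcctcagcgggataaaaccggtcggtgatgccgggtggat
NRXN3 (chr14:78170123-78170372, plus strand): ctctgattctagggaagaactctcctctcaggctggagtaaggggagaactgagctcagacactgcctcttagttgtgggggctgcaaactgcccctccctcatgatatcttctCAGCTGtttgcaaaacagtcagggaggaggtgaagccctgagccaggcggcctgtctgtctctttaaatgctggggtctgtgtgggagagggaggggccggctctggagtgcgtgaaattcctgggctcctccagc
CACNA2D3 (chr3:54122302-54122551, plus strand): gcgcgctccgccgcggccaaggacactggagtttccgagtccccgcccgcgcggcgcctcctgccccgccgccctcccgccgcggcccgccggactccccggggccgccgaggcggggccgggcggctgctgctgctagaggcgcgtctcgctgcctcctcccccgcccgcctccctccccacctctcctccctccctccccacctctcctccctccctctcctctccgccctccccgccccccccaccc
PAX8 and NRXN3 each held 1 E-box, PAX2 and CACNA2D3 none, and TAATTA was in none of the 4. Of 27305 promoters of this length, 62.2% held an E-box and 4.49% TAATTA. Of the 23 named genes called higher in both of these comparisons, 18 had a promoter in the table, 7 with an E-box (38.9%) and 1 with TAATTA (5.56%). These are matches of letters only.

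Of the other genes with the highest ratios, ADARB2, at chr10:1177318-1737476, was at 2472 CPM (2435 to 2511) in members and 395 in the others, 6.26-fold (6.13 to 6.40), and its antisense RNA ADARB2-AS1 was 6.75-fold higher. RELN, the secreted glycoprotein reelin, was at 202 against 29.7 CPM (6.80-fold), and NXPH1, a secreted ligand of neurexins, at 657 against 113 CPM (5.82-fold). SAMD5 (768 against 118 CPM), PLD5 (342 against 59.0), LRTM1 (79.2 against 14.7), SEZ6L (112 against 21.6), the potassium channel KCND2 (351 against 75.3) and the adhesion molecule NCAM2 (474 against 109) were between 4.34- and 6.49-fold higher. The barcode with most UMIs of a gene held 0.787% (SAMD5) to 1.91% (NCAM2) of the UMIs of these 10 genes in members.

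The lower end was led by genes that were highest in the RFX4 progenitor barcodes. WDR49 was at 18.3 CPM in members and 77.9 in the others, 4.26-fold lower, TRABD2B, an inhibitor of WNT proteins, at 61.0 against 247 CPM (4.04-fold lower) and TTC6 at 65.0 against 252 CPM (3.88-fold lower). ARSJ, COL25A1, PAPSS2, SNTB1, CORIN, GALR1 and FRMPD4 were 3.54- to 4.04-fold lower. All 10 were higher in the RFX4 progenitor barcodes than in the others as a whole, for instance TTC6 at 410 CPM and FRMPD4 at 377 CPM. NFIA, a factor of the gliogenic switch, was at 186 CPM in members and 651 in the others, 0.286 of their level.

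The share of neuronal barcodes differs between members and the others, so the comparison was repeated within neuronal barcodes. When both groups were limited to barcodes with at least 2 neuronal UMIs (876 members and 4335 others), 183 of 10995 genes (1.66%) were higher and 218 (1.98%) lower, and 182 and 217 of these were also called against all others. The leading genes were called here too, at lower ratios: PAX8 was 7.63-fold higher, PAX8-AS1 7.48-fold, CACNA2D3 6.64-fold, NRXN3 5.13-fold, RELN 4.48-fold, ADARB2 4.17-fold and PAX2 3.98-fold. The lower genes were also called, with WDR49 at 0.292 and TTC6 at 0.352 of the level in the other neuronal barcodes.

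Transcription factors of hindbrain and spinal inhibitory neurons were the list with the largest share of higher genes among lists with at least 10 measured members. The lists were written with earlier results of these data known, so this rank is not separate evidence. Of 29 listed, 25 had at least 3 UMIs in a group and 12 reached 10 CPM, and of these 7 were higher (PAX2, PAX5, PAX8, LHX1, TFAP2B, EN1 and PRDM8) and 1 lower (FOXP2), with a median log2 ratio of 1.48. Over all genes tested 3.9% were higher and 3.8% lower, with a median of -0.12. Summed over the list, the level was lower in members, at 997 against 1137 CPM. LHX1, a LIM homeodomain factor, was at 76.3 against 24.2 CPM (3.15-fold) and TFAP2B at 17.2 against 4.90 CPM (3.51-fold). EN1, PRDM8 and PAX5 were at 14.4, 14.8 and 11.2 CPM in members and 4.39, 6.01 and 3.33 CPM in the others. FOXP2 was at 258 against 640 CPM, 0.403 of the level in the others. Limited to neuronal barcodes, 6 of 12 were higher and FOXP2 lower, beside 1.66% and 1.98% of all genes. LHX5 and LBX1, factors of early dorsal cord neurons, were at 5.74 and 3.17 CPM, under the 10 CPM needed for a call, and PTF1A, a factor of dorsal inhibitory precursors, had 2 UMIs in all members.

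**Figure D2:**
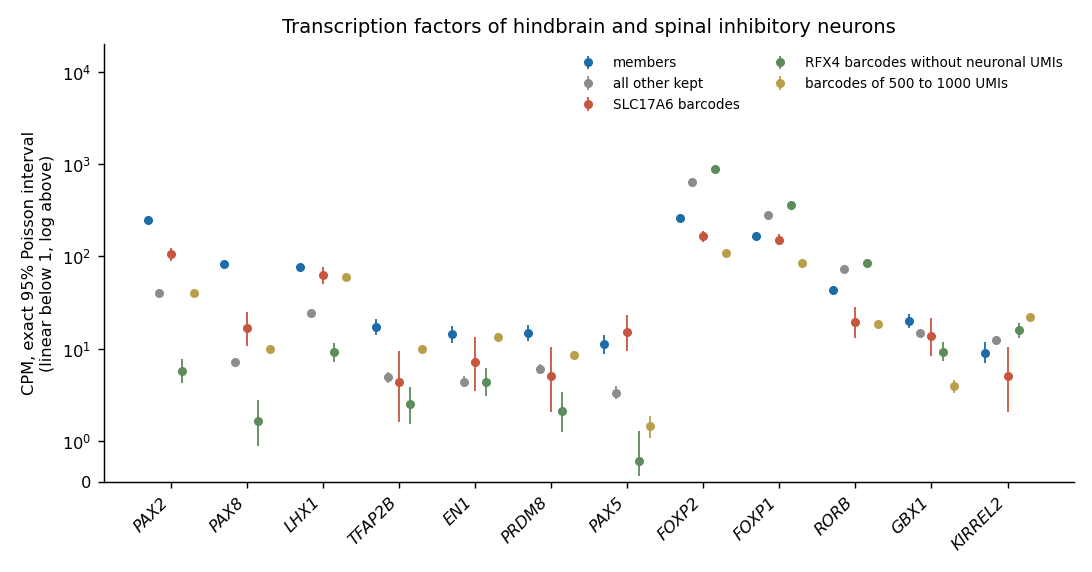
Levels in CPM with exact 95% Poisson intervals (linear below 1 and log above) of 12 genes of hindbrain and spinal inhibitory neurons in 5 sets of day 5 barcodes. Members are highest for PAX2 and PAX8, at 249 and 81.8 CPM, while FOXP2 and FOXP1 are highest in the RFX4 progenitor barcodes and EN1, LHX1 and TFAP2B are also seen in barcodes of 500 to 1000 UMIs.

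The factors were often found in the same members. Any of PAX2, PAX8, LHX1 and LHX5 was detected in 80.6% of members, 19.2% of the others and 7.91% of the RFX4 progenitor barcodes, in genes picked after their levels were seen. Of 316 members with PAX8, 245 (77.5%) also had PAX2, and PAX8 was found in 42.3% of members with PAX2 and 22.1% of those without. Of 336 with LHX1, 242 (72.0%) had PAX2. RELN was found in 412 members and NXPH1 in 496, with 308 holding both, which is 74.8% of the members with RELN and 62.1% of those with NXPH1. By contrast, the share of members with NXPH1 was 51.6% among those with PAX2 and 61.2% among those without. Deeper barcodes detect more of every gene, and these shares are not corrected for that.

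For factors of other inhibitory lineages the lists are short, and 0 higher is near the 3.9% of all genes called higher. Of the V2b and midbrain list, with GATA2, GATA3 and TAL1, 0 of 3 measured genes were called in either direction, GATA2 had 4 UMIs in members and TAL1 0. Of 10 measured forebrain factors 0 were higher and 2 lower, among them SOX6 at 51.8 against 149 CPM. DLX1, DLX2 and DLX5 had 10, 3 and 5 UMIs in all members, and LHX6, the factor of medial ganglionic eminence cells, 0. EMX2, a factor of the dorsal telencephalon, was at 0 UMIs in members. MEIS2 and TSHZ2, also on the forebrain list and widely expressed elsewhere, stood at 3077 and 1934 CPM in members and 2111 and 1724 CPM in the others. Of 6 measured genes on the list of hindbrain and spinal excitatory factors 0 were higher. Only NFIA, described above as a factor of the gliogenic switch, was lower, beside 3.8% of all genes.

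Genes of position along the body axis were measured next. Of the anterior HOX genes 5 of 15 were measured and 0 called, HOXB3 being the highest at 149 CPM (140 to 158) in members and 92.8 in the others. Of 23 posterior HOX genes 0 reached 10 CPM, and their summed level was 0 CPM in members. HOXB3 was also at 59.9 CPM in the day 0 fibroblasts and 98.6 CPM at day 3. Of the forebrain and midbrain position genes 3 of 4 measured were higher, beside 3.9% of all genes. They were EN1, PAX2 and PAX5, which mark the border of midbrain and hindbrain and are on the list above too.

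Around GABA and glycine, few transport, breakdown and receptor genes were called. KCTD8, a partner of GABA-B receptors, was higher at 109 against 53.6 CPM, and ABAT, which breaks GABA down, was at 214 against 194 CPM, not called. For glycine uptake and cleavage 0 of 6 measured genes were called, with GLDC at 135 against 129 CPM. Of 5 measured GABA-A receptor subunits 0 were called, and of the glycine receptors 0 of 2 were called, GLRA2 at 18.4 and GLRB at 14.8 CPM. GPHN, the gephyrin scaffold under both receptors, was at 879 against 716 CPM. The chloride importer SLC12A2 was at 112 against 160 CPM and 0 of 3 measured chloride transporters were called. Among synthesis genes of other transmitters, CHAT, the enzyme of acetylcholine synthesis, was at 16.9 against 3.59 CPM (4.71-fold), and its partner SLC5A7, the choline transporter, at 41.0 against 24.1 CPM, below the fold.

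General neuronal genes were often higher in members than in the other barcodes, of which 52.1% passed the neuronal gate. Of 32 pan-neuronal genes 16 were higher and 0 lower (median log2 ratio 0.98), among them MYT1L, a repressor of non-neuronal genes, at 478 against 115 CPM, STMN2 at 749 against 270 and DCX at 317 against 128. Beside this, 3.9% of all genes were higher and 3.8% lower, with a median of -0.12. MAP2 was at 1565 against 854 CPM and TUBB3 at 227 against 179 CPM, neither past the fold. Against neuronal barcodes alone, with the 7 genes of the neuronal gate left out, 5 of 25 were higher, among them RBFOX3, CELF4, NSG2 and ANK2. Of 16 precursor genes 6 were higher, among them EBF1 (446 against 146 CPM), ROBO3 (188 against 52.1 CPM), the receptor of commissural axons, and CNTN2 (68.0 against 22.6 CPM), and these 3 of 17 were higher within neuronal barcodes. Among neuronal barcodes 1.66% of all genes were higher.

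Genes of receptors, release, channels and adhesion were also more often higher than lower, beside 3.9% and 3.8% of all genes. Of 18 glutamate receptor genes 8 were higher, GRIA2 at 149 against 43.4 CPM and GRIK3 at 211 against 67.8 CPM among them, and GRIN2A was lower at 163 against 431 CPM. Of 20 release genes 7 were higher, among them SV2C, a vesicle protein, at 182 against 49.8 CPM, and RIMS1 at 404 against 143 CPM. Of 33 adhesion genes 9 were higher and CNTN4 lower (521 against 1340 CPM), and of 29 channel genes 7 were higher and 4 lower, among them the potassium channel KCNH5 at 68.2 against 209 CPM. The growth factor NRG1 was at 970 against 236 CPM (4.10-fold). In neuronal barcodes alone the higher genes were 3 receptors, 2 release genes, 3 adhesion genes and 3 channels, of 18, 19, 33 and 29, beside 1.66% of all genes.

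Progenitor, dividing and mesenchymal genes were lower or not called. Of 15 progenitor genes 3 were lower (RFX4 at 850 against 2092 CPM, SLC1A3 and ZIC1), of 24 cell cycle genes 5 (BUB1, BUB1B, CDK1, KIF4A and CDC6) and of 9 mesenchymal genes 3 (COL1A2, COL14A1 and LUM), with medians of -0.55, -0.76 and -0.72, beside 3.8% of all genes lower and a median of -0.12. Within neuronal barcodes 1 of 15 progenitor, 3 of 24 cell cycle and 1 of 7 mesenchymal genes were lower, beside 1.98% of all genes. POSTN, a matrix protein of mesenchymal cells, was the exception at 15.6 against 1.86 CPM, but only 14 members (1.55%) held any and 1 barcode gave 44.7% of its UMIs. With a gate of 3 UMIs POSTN was lower in members, at a log2 ratio of -0.72. TAC1, the substance P precursor, called higher at 20.1 against 9.25 CPM, rested on 1 barcode for 42.9% of its UMIs and turned to -0.27 with that gate. Summed over their lists, progenitor genes were at 2259 CPM in members and 4177 in the others, cell cycle genes at 851 and 1438 and mesenchymal genes at 275 and 476, while barcodes of 500 to 1000 UMIs held 8122, 3497 and 1405 CPM. How far free RNA gives the progenitor and mesenchymal UMIs of members was not tested.

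**Figure D3:**
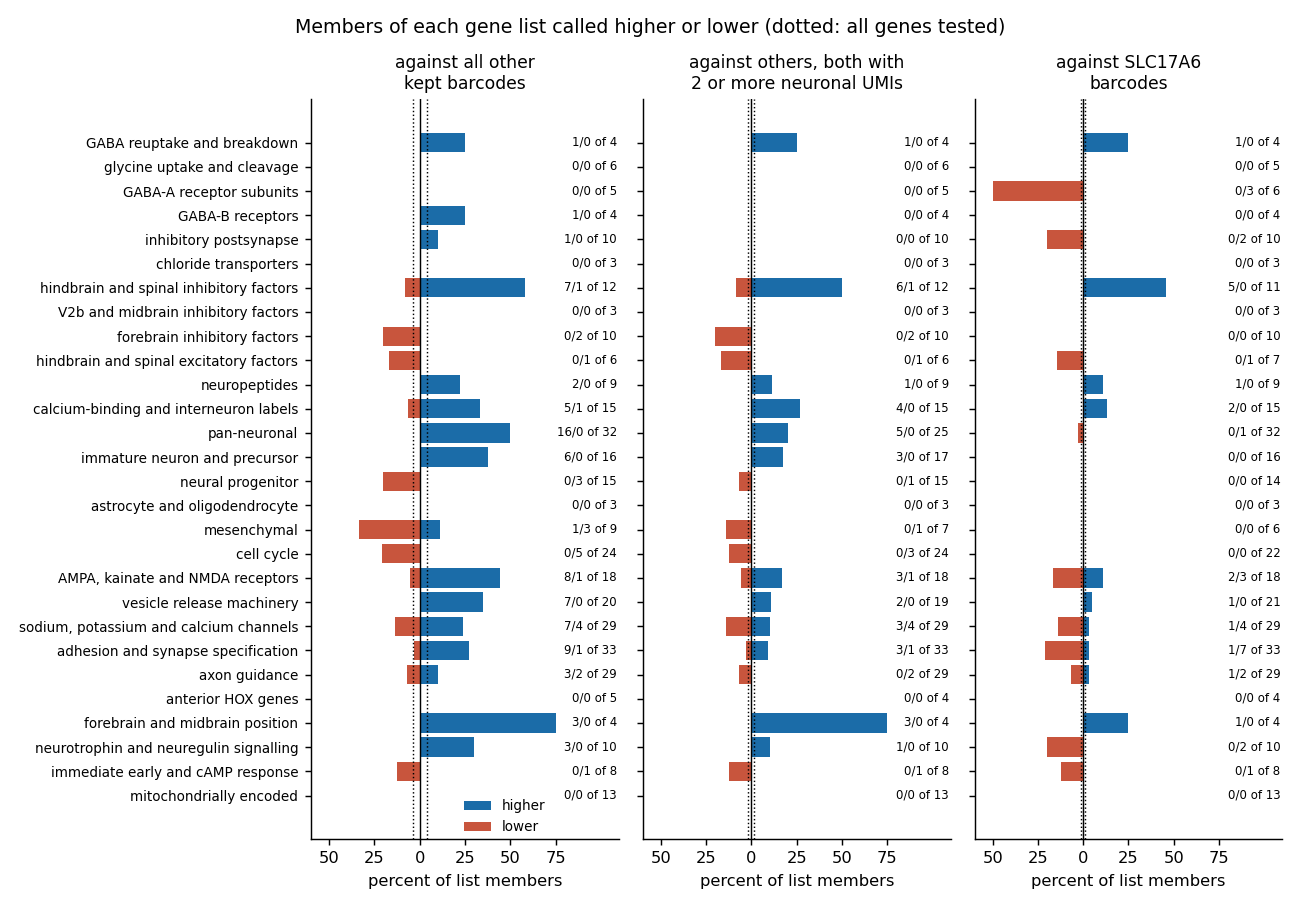
Share of the genes at 10 CPM or more, for lists with 3 or more such genes, that were called higher (blue, to the right) or lower (red, to the left) in members against all other kept barcodes, against others when both groups held 2 or more neuronal UMIs, and against SLC17A6 barcodes, with the counts beside each bar and the share over all genes as dotted lines. Factors of hindbrain and spinal inhibitory neurons were higher in all 3 panels (7, 6 and 5 genes), whereas 16, 5 and 0 pan-neuronal genes were.

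The levels of some genes went with the number of gate UMIs inside the gate as well, and those of others did not. Among barcodes without SLC17A6, NRXN3 was at 430 CPM with 0 gate UMIs (6958 barcodes), 1839 with 1 (689 barcodes), 3971 with 2 (226), 5619 with 3 to 4 (281), 6476 with 5 to 9 (288) and 7166 with 10 or more (106). PAX2 went from 23.4, 80.7 and 145 CPM with 0, 1 and 2 gate UMIs to 224, 283 and 339 CPM in the later bins, and PAX8 from 3.06, 17.8 and 43.3 to 61.9, 107 and 107 CPM. ADARB2 had another course: 211, 1045 and 2582 CPM, then a top of 2857 with 3 to 4 gate UMIs, 2472 with 5 to 9 and 1783 with 10 or more, and NXPH1 was likewise at 808 CPM with 3 to 4 gate UMIs and 411 with 10 or more. LHX1 was at 17.5 and 41.8 CPM with 0 and 1 gate UMIs and showed no order inside the gate, at 74.3, 87.9, 68.2 and 77.7 CPM. STMN2 was likewise level inside the gate, at 721, 784, 743 and 743 CPM, and RELN, at 154, 208, 241 and 174 CPM, and MYT1L, at 405, 515, 504 and 455 CPM, were not highest in the last bin. NFIA went from 728 CPM with 0 to 146 with 10 or more. The median depth was higher in each later bin, from 4172 UMIs with 0 gate UMIs to 8066 with 10 or more, and its part was not tested. The genes of this paragraph were picked after their values were seen.

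**Figure D4:**
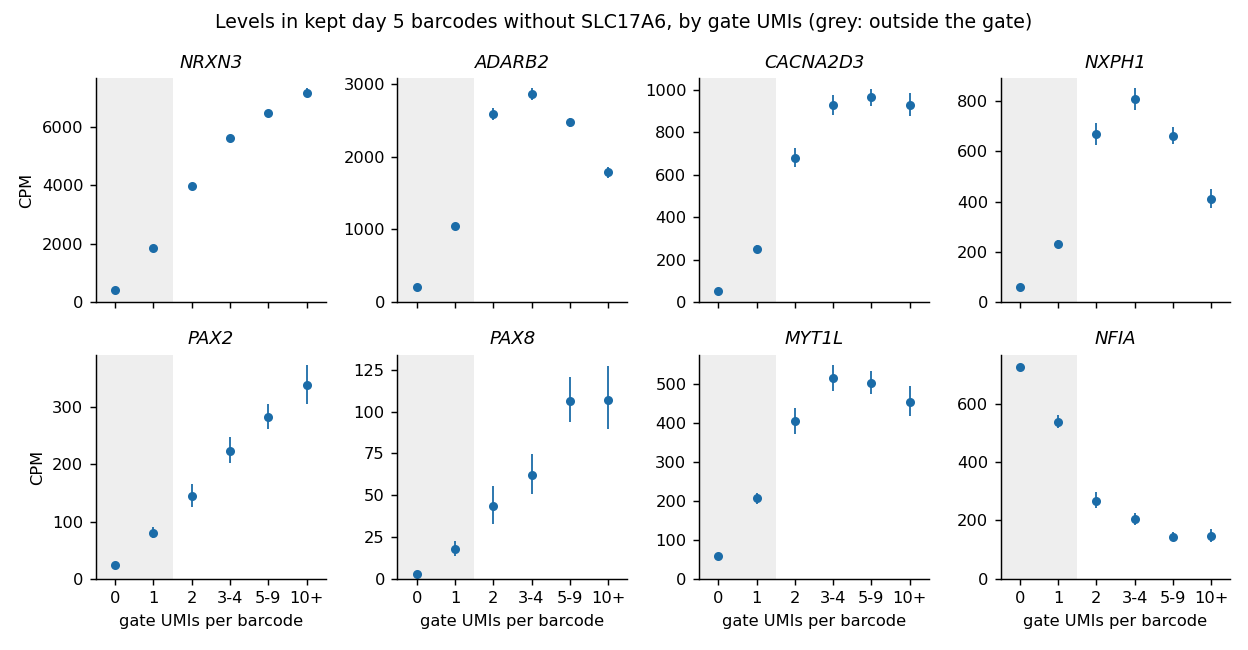
CPM with exact 95% Poisson intervals of 8 genes in kept day 5 barcodes without SLC17A6, by the number of gate UMIs per barcode, with the barcodes outside the gate on grey. NRXN3 and PAX2 are higher in each later bin, up to 7166 and 339 CPM, ADARB2 and NXPH1 have their top at 3 to 4 gate UMIs, and NFIA is lower inside the gate.

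Values of single members were spread widely. This spread includes counting error and differences in depth, and their part was not tested. NRXN3 was at a median of 5784 CPM per member, with quartiles of 3050 and 9319, and only 2.55% of members had no UMI, against 51.2% of the others. ADARB2 had a median of 1837 CPM and quartiles of 642 and 4151, with 7.21% of members at 0. CACNA2D3 was at 0 in 24.6% of members, NXPH1 in 44.95% and RELN in 54.3%. Their medians were only 4, 1 and 0 UMIs per member, so a 0 need not mean that the RNA was absent. MAP2, by comparison, had quartiles of 963 and 2197 CPM.

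Against the 175 barcodes with at least 2 UMIs of SLC17A6 and 0 of the 4 inhibitory genes (SLC17A6 barcodes), the question was what sets members apart from glutamate-type barcodes of the same culture. CACNA2D3 was at 889 CPM in members and 76.1 (62.3 to 92.1) in SLC17A6 barcodes, 11.7-fold (9.63 to 14.3) higher, and CACNA2D1, another subunit of the same family, was at 343 CPM in members and 2179 (2102 to 2258) in SLC17A6 barcodes, 6.36-fold lower. NRXN3 was 8.82-fold (8.26 to 9.43) higher in members, at 663 CPM in SLC17A6 barcodes. Of 10897 genes 121 (1.11%) were higher and 155 (1.42%) lower, with a median log2 ratio of 0.02. SLC17A6 barcodes held 1379450 UMIs in all, so calls near 10 CPM rest on few UMIs there. At 50 CPM or more, 28 genes were higher and 47 lower.

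Higher in members were, after CACNA2D3 and NRXN3, LRTM1 (79.2 against 11.6 CPM, 6.83-fold), PLD5 (342 against 55.1, 6.22-fold), PAX8-AS1 (163 against 26.8, 6.09-fold), PAX8 (81.8 against 16.7, 4.90-fold), RELN (202 against 45.7, 4.42-fold) and SLC35F4 (257 against 63.8, 4.03-fold). RBMS3, an RNA-binding protein, was at 550 against 202 CPM and its antisense RNA RBMS3-AS2 at 78.7 against 23.9. TMTC2 (785 against 275 CPM), FSTL5 (116 against 42.0) and the calcium release channel ITPR2 (110 against 41.3) were 2.67- to 2.86-fold higher. ADARB2 was 2.78-fold (2.62 to 2.95) higher and PAX2 2.35-fold, at 890 and 106 CPM in SLC17A6 barcodes. NXPH1 and SAMD5, high against all others, were at 375 and 452 CPM in SLC17A6 barcodes and did not reach the fold. KCND2 was at 351 and 382 CPM, with a ratio of 0.918.

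Among the 155 genes lower in members, BRINP3 was at 25.7 against 191 CPM (7.45-fold lower), with 24.2% of its UMIs in SLC17A6 barcodes from 1 barcode, VWDE at 18.1 against 128 CPM (7.04-fold lower) and IL1RAPL2, a synaptic adhesion receptor, at 77.5 against 494 CPM (6.37-fold lower). EPHA6, an ephrin receptor, was at 266 against 948 CPM, KLHL1 at 182 against 615, NDST3 at 50.2 against 236, RALYL at 98.98 against 363 and PEX5L at 41.6 against 140. CACNA2D1 was detected in 93.1% of SLC17A6 barcodes and 42.6% of members, and after thinning in 88.0% and 27.3%, which is close to its 29.6% in all other barcodes. IL1RAPL2, at 78.4 CPM in the others, was at a similar level in members.

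By list, 5 of 11 measured factors of hindbrain and spinal inhibitory neurons were higher in members than in SLC17A6 barcodes and 0 lower: PAX2, PAX8, TFAP2B, PRDM8 and RORB. Over all genes in this comparison 1.11% were higher and 1.42% lower. RORB and TFAP2B had 27 and 6 UMIs in SLC17A6 barcodes and turned lower when the gates were applied to thinned barcodes, both at a log2 ratio of -0.40. LHX1 was at 76.3 and 62.3 CPM and PAX5 at 11.2 and 15.2 CPM, not called, and any of PAX2, PAX8, LHX1 and LHX5 was found in 62.3% of SLC17A6 barcodes. Of 32 pan-neuronal genes 0 were higher and RBFOX1 was lower, at 1272 against 3776 CPM. Of the 2 measured genes of other transmitters, CHAT was not called and SLC5A7 was lower in members. The list of other transmitters summed to 78.7 CPM in members and 157 CPM in SLC17A6 barcodes. Of 6 GABA-A subunits 3 were lower in members, among them GABRA2 (16.3 against 39.1 CPM) and GABRB1 (14.0 against 43.5), as was the glycine receptor subunit GLRA2 (18.4 against 45.7). Of 33 adhesion genes 7 were lower and NRXN3 was higher, and of 29 channels 4 were lower (SCN2A, CACNA1D, CACNA1E and CACNA2D1) and CACNA2D3 higher. GRIA1 and GRIA3 were higher (367 against 171 and 84.8 against 34.8 CPM), and GRIK2, GRIK4 and GRM8 lower.

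The last comparison split members by transmitter gene. GAD-side members had at least 2 UMIs of GAD1 and GAD2 and none of SLC6A5 (99 barcodes, 751129 UMIs), SLC6A5-side members at least 2 UMIs of SLC6A5 and no GAD (305 barcodes, 1900678 UMIs), and 497 members were on neither side. Of 11118 genes 128 (1.15%) were higher on the GAD side and 70 (0.63%) lower. On the SLC6A5 side RELN was at 270 CPM against 51.9 on the GAD side (5.21-fold), PAX8-AS1 at 187 against 37.3 (5.02-fold), PAX8 at 93.1 against 19.97 (4.66-fold) and LRTM1 at 85.8 against 25.3 (3.39-fold). SAMD5 and CACNA2D3 were 2.72- and 2.41-fold higher there, and ASIC2 2.60-fold. With the gates applied to thinned barcodes, which left 38 GAD-side and 259 SLC6A5-side members, 8 of the 70 calls and 18 of the 128 were shared. The log2 ratio of the GAD over the SLC6A5 side was then -2.37 for RELN (-2.38 before), -1.30 for PAX8 (-2.22 before) and -0.80 for PAX8-AS1 (-2.33 before), and LRTM1 turned direction, to 0.13. PAX8 was found in 113 of 305 SLC6A5-side and 10 of 99 GAD-side members, or 21.3% and 4.04% after thinning. PAX2 was at 212 and 145 CPM and NRXN3 at 5791 and 4268 CPM on the SLC6A5 and GAD side, neither past the fold.

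Genes higher on the GAD side often rested on 1 barcode. In 59 of the 128 the highest barcode held over 25% of the side's UMIs, and for 24 of these it was the same barcode, of 10285 UMIs, which gave 85.1% of the TAC1 UMIs, 70.7% of COL8A1, 68.5% of SEMA3C and 61.4% of OLFML2A. For no gene higher on the SLC6A5 side did 1 barcode hold over 25%. Counted without the highest barcode of each gene on each side, 54 of the 128 remained, and TAC1 went from a log2 ratio of 2.88 to 0.41. POSTN was at 129 CPM on the GAD side, in 8 barcodes, against 2 UMIs on the SLC6A5 side (interval of the ratio 33.1 to 1028), and COL1A1 at 43.9 against 2.10 CPM in 6 and 4 barcodes. The part of these few barcodes in the other GAD-side values was not tested beyond leaving out the highest one. Genes spread more evenly were EBF2, a factor of young neurons, at 172 against 60.5 CPM (2.84-fold, in 37 GAD-side barcodes) and NEGR1, an adhesion molecule, at 325 against 128 CPM (2.53-fold, in 48). The kainate receptor gene GRIK1 was at 269 against 56.8 CPM in 26 barcodes, with 27.2% from 1.

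DLX6-AS1 is the antisense RNA of the DLX5 and DLX6 locus of forebrain inhibitory neurons. It had 26 UMIs in 10 of 99 GAD-side members and 0 in 305 SLC6A5-side members. With 0 set at 3 UMIs its ratio was 21.9, and the interval of the ratio had a lower limit of 16.6. DLX6-AS1 was at 34.6 CPM (22.6 to 50.7) on the GAD side, with 19.2% from 1 barcode. It was at 4.99 CPM in all members and 1.15 CPM in the others. DLX1 had 5 UMIs and DLX5 2 on the GAD side, too few to add to it. Any of PAX2, PAX8, LHX1 and LHX5 was found in 62.6% of GAD-side and 78.4% of SLC6A5-side members. The GAD side was the deeper one, with a median of 5532 UMIs against 4600.

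**Figure D5:**
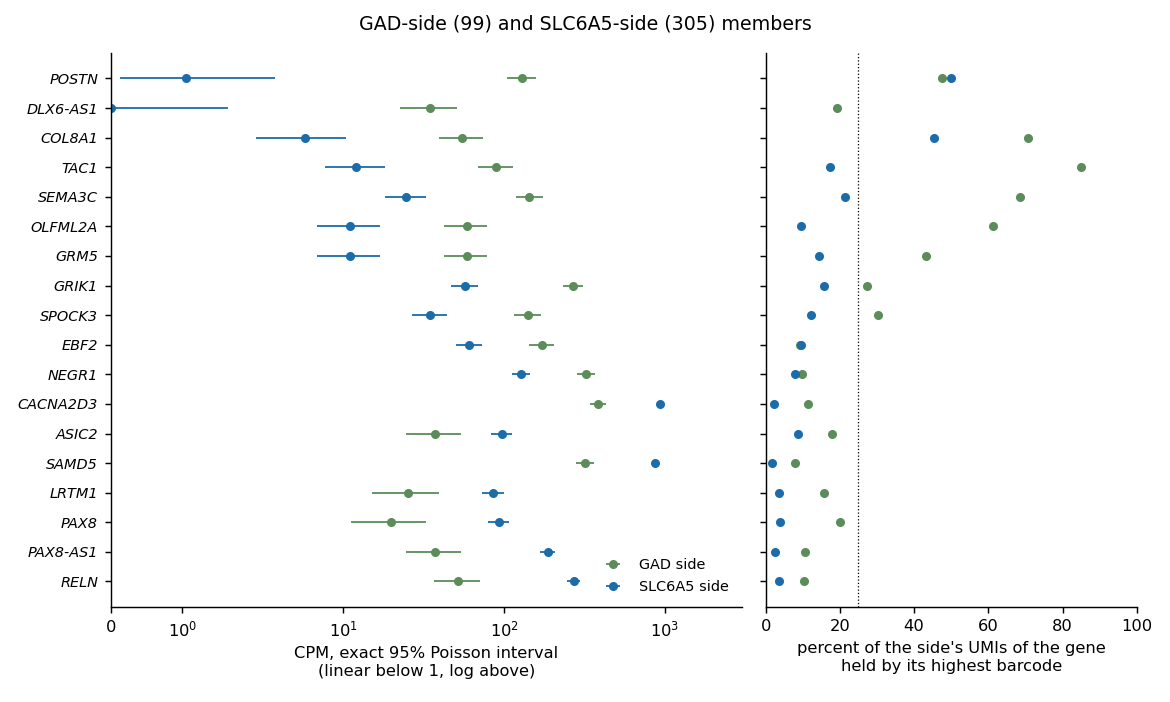
Left, CPM with exact 95% Poisson intervals (linear below 1 and log above) of 18 genes in GAD-side and SLC6A5-side members; right, the percent of a side's UMIs that its highest barcode held, with a dotted line at 25%. RELN, PAX8-AS1 and PAX8 are higher on the SLC6A5 side with no barcode over 25%, while TAC1, COL8A1, SEMA3C and OLFML2A on the GAD side owe 61.4% to 85.1% of their UMIs to 1 barcode.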

How the data were processed

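Deposited gene by barcode matrices of 3 libraries held UMI counts (whole numbers, not normalized), made by the authors with Cell Ranger 4.0.0 per the submitters' processing notes. For introns and strand the counting rule was not stated in the labels or notes, so genes that overlap on opposite strands cannot be told apart. The 9219 kept day 5 barcodes held 51708522 UMIs. Days 0 and 3 kept 16773 and 11454 barcodes, at 500 UMIs or more and the same limits on genes and mitochondrial share. UMIs were summed per group and divided by the group's total (CPM), with exact Poisson 95% intervals and an exact conditional interval of the ratio, and genes were called by ratio, level and separate intervals. Named genes had at least 50 CPM and separate intervals and the highest or lowest ratios, with up to 8 per list, and without clones, mitochondrial, ribosomal and sex-linked genes. The members and lists were chosen with earlier results of these data known. The RFX4 barcodes, the bins of gate UMIs, the genes tested for shared detection and spread, and DLX6-AS1, EBF2 and NEGR1 were chosen after values were seen. No cells were clustered and no doublets called. Alternatives changed thinning, gates, scaling, filters and free RNA. Shares were thinned to 2155 UMIs and have exact binomial intervals. Some genes are not reported here, though list counts include them. The call rule was run on simulated counts that held counting error only. Against all others, 0 of 10736 genes without a simulated difference were called. Against SLC17A6 barcodes 39 of 10689 such genes were called, and between the sides 27 of 10895. Of 50 genes at a simulated 3-fold, 50, 50 and 47 were called in these comparisons. Python 3.11.15, numpy 2.4.6, scipy 1.17.1, pandas 2.3.3, matplotlib 3.10.9, R 4.3.3 and edgeR 4.0.16 (TMM factors only) were used.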

Additional observations from a re-analysis of the deposited data

Results flagged for a closer look

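Barcodes of 500 to 1000 UMIs lay under the depth limit and entered no comparison. Of 50562 such day 5 barcodes 163 passed the same gate, 0.322% (exact binomial interval 0.275 to 0.376), against 3 of 16773 kept day 0 barcodes (0.0179%, 0.00369 to 0.0523) and 0 of 11454 at day 3. They had a median of 753 UMIs and a median mitochondrial share of 11.0%.

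Another 123 kept day 5 barcodes, 1.33% of 9219 (1.11 to 1.59), held at least 2 gate UMIs together with SLC17A6 and were left among the others. Their median was 14700 UMIs, against 5179 in members, and all 123 passed the neuronal gate. Whether they are doublets was not tested.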

How the results depend on the processing

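No paired analysis was possible because each group has 1 library, and no library could be left out. Against all others, genes lower were 719 with barcodes thinned, 982 with gates on thinned barcodes, 674 without barcodes above the 95th percentile of UMIs and 880 with free RNA subtracted. Higher and lower were 227 and 159 at 50 CPM, 844 and 908 with no limit on CPM, and 183 and 218 in neuronal barcodes. Against SLC17A6 barcodes, genes higher were 78 with gates on thinned barcodes, 28 at 50 CPM (47 lower), 215 with free RNA subtracted and 184 without each gene's highest barcode, an alternative chosen after seeing the data. Between the sides, genes higher on the GAD side were 82 thinned, 63 with gates on thinned barcodes (36 lower), 48 at 50 CPM (29 lower) and 54 without the highest barcode (117 lower), and genes lower were 106 with a gate of 3 UMIs and 195 with free RNA subtracted. The cause was not tested.

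Log2 ratios that changed sign against all others were TAC1 at -0.11 (gates on thinned barcodes), -0.27 (gate of 3 UMIs) and -0.094 (neuronal barcodes) and POSTN at -0.72 (gate of 3 UMIs). Against SLC17A6 barcodes, with gates on thinned barcodes, SEMA3C was at -0.68, RORB and TFAP2B at -0.40 and NXPH2 at -0.60. Between the sides BRINP3 was at 0.21 thinned and 1.55 with gates on thinned barcodes, where LRTM1 was at 0.13, RALYL at -0.40, SPOCK3 at -0.73, CHAT at 0.032 and EN1 at 0.27. With a gate of 3 UMIs SEMA3C was at -0.0754 and OLFML2A at -0.14, and with the stricter cell filter OLFML2A was at -0.34. With gates on thinned barcodes, 18 of the 128 and 8 of the 70 side calls were shared.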
